A study of Mus musculus with 32 samples.

Results

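The genes described here encode the coat and fusion proteins of the lipid droplet: the perilipins Plin1, Plin2, Plin3, Plin4 and Plin5, and the CIDE proteins Cidea and Cidec. They were chosen by name, with earlier results of these data known, and are 7 of the 50686 genes of the count table. All 7 passed the filter on low counts, which 15505 genes passed.

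Perilipins coat the phospholipid surface of lipid droplets and set how far lipases and their partners reach the stored triglyceride. CIDE proteins gather where droplets touch each other and let lipid pass from the smaller into the larger droplet, so that droplets grow. Brown adipocytes hold many small droplets, burn the fatty acids released from them to make heat, and are known for a high level of Cidea.

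The samples were interscapular brown adipose tissue (iBAT) of male C57BL/6J mice, 10 weeks old and with no transgene or drug. All mice had chow and water freely available, were not fasted, and were housed at 22 °C in a cycle of 12 h light and 12 h dark until they were killed with CO2. Groups were 8 Zeitgeber times (ZT, hours after lights on), every 3 h from ZT0 to ZT21, with 4 mice each and 1 stranded paired-end RNA library per mouse, 32 libraries in all. Lights went off at ZT12, and 1 daily cycle was sampled in 1 sex.

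Cidec, which drives droplet growth in fat cells, had the widest daily range: 518 ± 57.7 counts scaled to library size (CPM, SD, n = 4) at ZT21 and 1029 ± 114 at ZT12, 1.99-fold apart in the means. Plin4 and Plin5 were also high around the onset of the dark phase, Plin3 stood out at ZT15, and Plin1 was lowest at ZT15. Plin2 differed more among mice of the same time point than any other member, and Cidea, the most abundant member, had time-point means within 1.08-fold of each other. CPM were scaled with TMM factors. Because the tissue was sequenced in bulk, fewer cells of a type and less RNA per cell cannot be told apart.

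Total counts per library lay between 16300770 and 18254659. All 10 brown adipocyte markers and all 7 adipocyte markers had counts in every library, and all 14 clock genes had a 24 h cosine in edgeR's quasi-likelihood test with Benjamini-Hochberg (BH) adjustment. Such a cosine was called for 2 of 10 brown adipocyte, 3 of 7 adipocyte, 3 of 6 tested white adipocyte, 4 of 8 macrophage, 4 of 6 endothelial and 4 of 5 stromal markers, against 36.1% of all tested genes. It was called for 0 of 12 skeletal muscle and 0 of 4 blood markers, where unadjusted edgeR p under 0.05, DESeq2 and JTK also gave 0. The summed level of the muscle markers was uneven, from 56.2 to 7504 CPM per library, with the lowest mean at ZT6 (496 ± 874 CPM, SD, n = 4) and the highest at ZT15 (3444 ± 2950), and it exceeded 1000 CPM of total counts in 15 libraries. By the library names, sequencer lane 2 held ZT0 to ZT6, lane 3 held ZT9 to ZT15 and lane 4 held the remaining time points, so between lanes the lane and the time of day cannot be told apart.

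Among mice of the same time point 3 libraries stood apart: ZT15 replicate 1, ZT6 replicate 4 and ZT9 replicate 3, each with a mean chi-square per gene, comparing the counts of 2 libraries, over 60 in at least 2 of its pairs. For ZT15 replicate 1 the pairs had 63.9 to 82.3, against 7.92 to 12.7 among the other mice of ZT15. Without these 3 libraries, chosen after seeing the data, the same members were called for the cosine (4), JTK (4), any difference (5) and the cosine beside lane (2), beside 5456, 5395, 6743 and 2910 of 15613 genes. The exceptions were Plin1 at ZT15 against ZT3 (edgeR adjusted p = 0.0544, no longer called), Cidec at ZT18 against ZT6 (0.41, adjusted p = 0.0347, then called, beside 2573 of 15613 genes) and Plin3 within lane 3 (adjusted p = 0.0491, then called, beside 324 of 15613 genes).

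The first question was which members changed over the day. A 24 h cosine was called for 4 of the 7 members (Plin1, Plin4, Plin5 and Cidec; edgeR, BH-adjusted p under 0.05), against 36.1% of all tested genes. JTK, a rank test for rhythms and the test of the study, called the same 4 members at P under 0.05, against 34.8% of genes. With BH adjustment JTK kept Plin4 and Cidec, 2 of 7, against 25.5% of genes. A difference of any shape between the 8 time points was called for 5 members, the same 4 and Plin3, against 39.8% of genes. The median amplitude of the members was 0.17 on the log2 scale, beside 0.14 over all tested genes. With 7 members these counts do not set the list apart from other genes, and the difference was not tested.

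Leaving out the 15 libraries with high muscle markers, an alternative chosen after seeing the data that left as few as 1 mouse at a time point, the cosine was called for Cidec, 1 of 7, against 2863 of 16063 genes tested. JTK P was also under 0.05 for Cidec, 1 of 7, against 3048 of 16063. A difference between time points was then called for Plin5 and Cidec, 2 of 7, against 1548 of 16063 genes. The part of muscle RNA in these results was not tested.

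**Figure D1:**
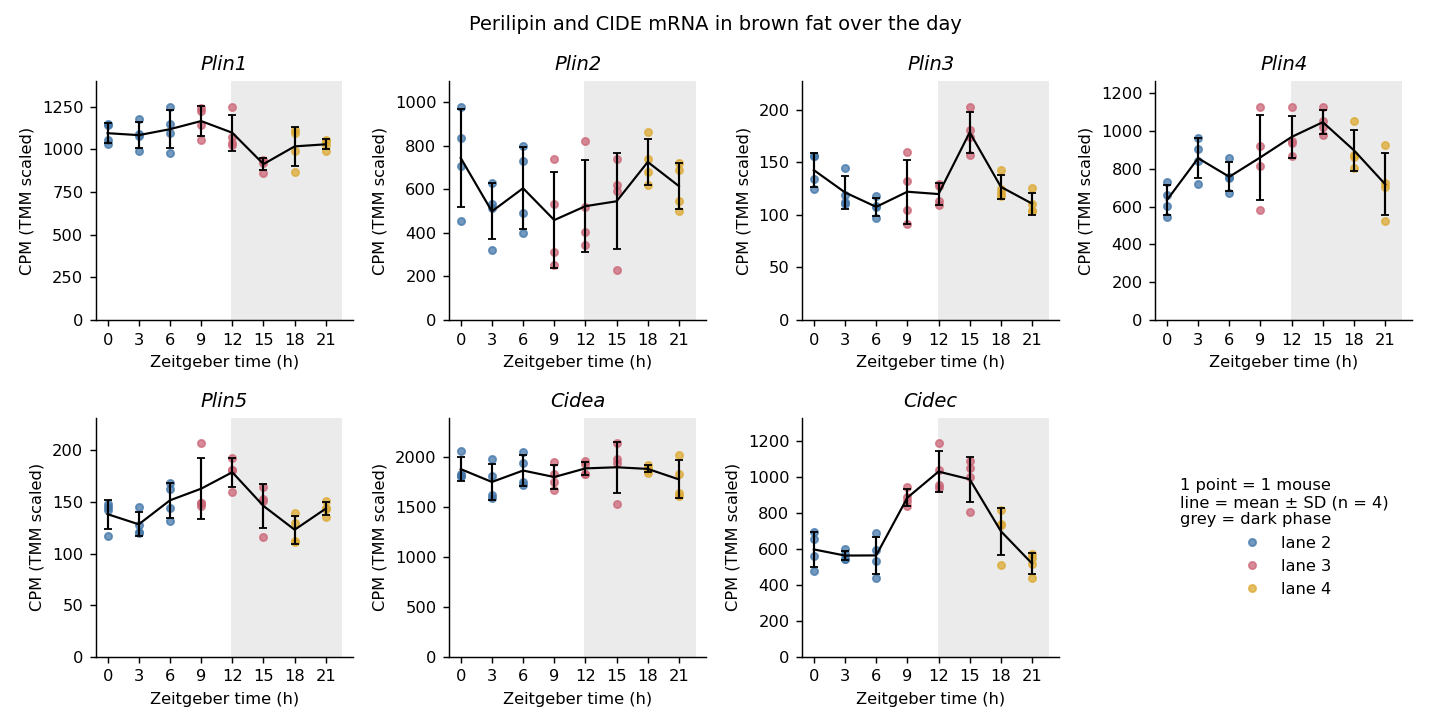
CPM after TMM scaling (vertical axes, from 0) against Zeitgeber time in hours, 1 panel per gene. Points are single mice coloured by sequencing lane, lines join the means with SD over 4 mice, and grey marks the dark phase. Cidec rises from ZT6 to ZT12 and falls to 518 CPM at ZT21, Plin3 is highest at ZT15, and the mice of Plin2 spread widely at most time points.

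The members differed widely in level, which was compared per kilobase of annotated exons (CPM per kb), since a longer transcript gives more reads. On this scale Cidea stood at 1648 ± 132 CPM per kb (SD over the 32 libraries) and Cidec at 393 ± 115. Among the perilipins Plin1 was at 229 ± 22.3, Plin2 at 168 ± 53.6, Plin4 at 146 ± 29.4, Plin5 at 70.2 ± 11.0 and Plin3 at 34.0 ± 6.90 CPM per kb. Plin2 overlapped its neighbours Plin1 and Plin4 in this order within their SD.

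Summed per length, the 5 perilipins changed little in total, from 617 ± 53.5 CPM per kb at ZT3 to 673 ± 30.2 at ZT18 (SD, n = 4), while the shares within the sum moved. Plin1 made up 39.2% ± 1.47 of the sum at ZT9 and 30.5% ± 2.86 at ZT15. Plin4 made up 16.8% ± 3.08 at ZT0 and 28.1% ± 3.39 at ZT15. Plin2 ranged from 11.9% to 37.3% of the sum over single mice. Of the Cidea and Cidec sum, Cidec held 15.0% ± 1.27 at ZT21 and 24.7% ± 2.01 at ZT12, with no overlap between the mice of these time points. These shares were not tested, and the time points named were picked as the extremes of the means.

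**Figure D2:**
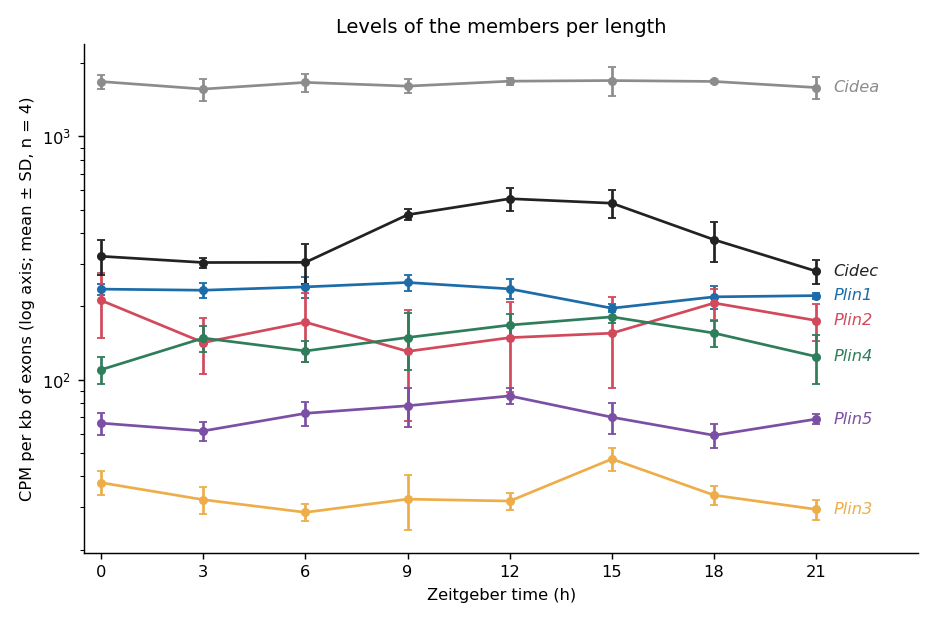
CPM per kilobase of exons on a log axis against Zeitgeber time in hours, as mean and SD over 4 mice, 1 line per gene. Cidea lies above all others at 1566 to 1697 CPM per kb, Cidec follows, and Plin3 is lowest throughout at 28.4 to 47.1.

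Cidec (ENSMUSG00000030278, chr6:113424634-113435760, minus strand, GRCm38) encodes the protein that enlarges droplets in white and brown fat cells. Its level at ZT0 was 656, 559, 692 and 479 CPM in the 4 mice, at ZT3 569, 597, 542 and 541, and at ZT6 440, 530, 594 and 689. At ZT9 it was 866, 946, 835 and 888 CPM, at ZT12 1186, 1040, 955 and 935, and at ZT15 805, 1088, 1051 and 1001. At ZT18 it was 511, 735, 730 and 815, and at ZT21 550, 569, 438 and 514. Every mouse of ZT9, ZT12 and ZT15 lay above every mouse of ZT0, ZT3, ZT6 and ZT21. Of the neighbours in the order of the means, ZT15 exceeded ZT9 and ZT9 exceeded ZT18 by more than their pooled SD, and the other neighbours did not.

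The cosine of Cidec had an amplitude of 0.48 ± 0.06 (log2 CPM, SE), a peak-to-trough fold of 1.96 and its peak at ZT12.6 ± 0.472 (SE in hours), with an edgeR BH-adjusted p of 5.17e-07. JTK, whose null distribution is exact, gave P = 3.20e-06. The groups at the peak came from a single lane. Beside lane as a further term the cosine of Cidec had an adjusted p of 0.0970 (edgeR), and it was 0.0470 without ZT18 replicate 1, 0.0415 without ZT6 replicate 1 and 0.0360 without ZT15 replicate 1.

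Plin4 (ENSMUSG00000002831, chr17:56100591-56109803, minus strand) encodes a perilipin of fat cells that coats newly formed droplets. The 4 mice had 544, 603, 660 and 730 CPM at ZT0, 945, 867, 933 and 1127 at ZT12, and 1023, 1128, 979 and 1055 at ZT15. No mouse of ZT0 reached any mouse of ZT12 or ZT15. At ZT9 the mice were further apart, at 584, 812, 1125 and 920 CPM, and at ZT21 they were at 702, 924, 724 and 523. Its cosine had an amplitude of 0.26 ± 0.06, a peak at ZT13.0 ± 0.916 and an adjusted p of 0.00441 (edgeR). Beside lane as a further term the cosine of Plin4 was not called (edgeR adjusted p = 0.283). ZT3 exceeded ZT6 by more than the pooled SD, and no other neighbours in the order of the means did.

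Plin5 (ENSMUSG00000011305, chr17:56111601-56117596, minus strand) encodes the perilipin of oxidative tissues, which ties droplets to mitochondria. Its mice had 193, 181, 160 and 181 CPM at ZT12 and 112, 112, 139 and 129 at ZT18, without overlap. These were the highest and the lowest time point, picked by their means, so the lack of overlap is partly set by the choice. At ZT0 the mice had 148, 145, 142 and 117 CPM of Plin5, all below the mice of ZT12. The amplitude was 0.17 ± 0.05 with a peak at ZT10.3 ± 1.06 and an adjusted p of 0.0106 (edgeR). Beside lane as a further term the cosine of Plin5 was not called (edgeR adjusted p = 0.470). No neighbours in the order of the means of Plin5 differed by more than their pooled SD. Plin4 and Plin5 are neighbours on chromosome 17, on the same strand, 1797 bases apart with no coding gene between them, and Plin3 follows 159879 bases further with 7 coding genes between.

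**Figure D3:**
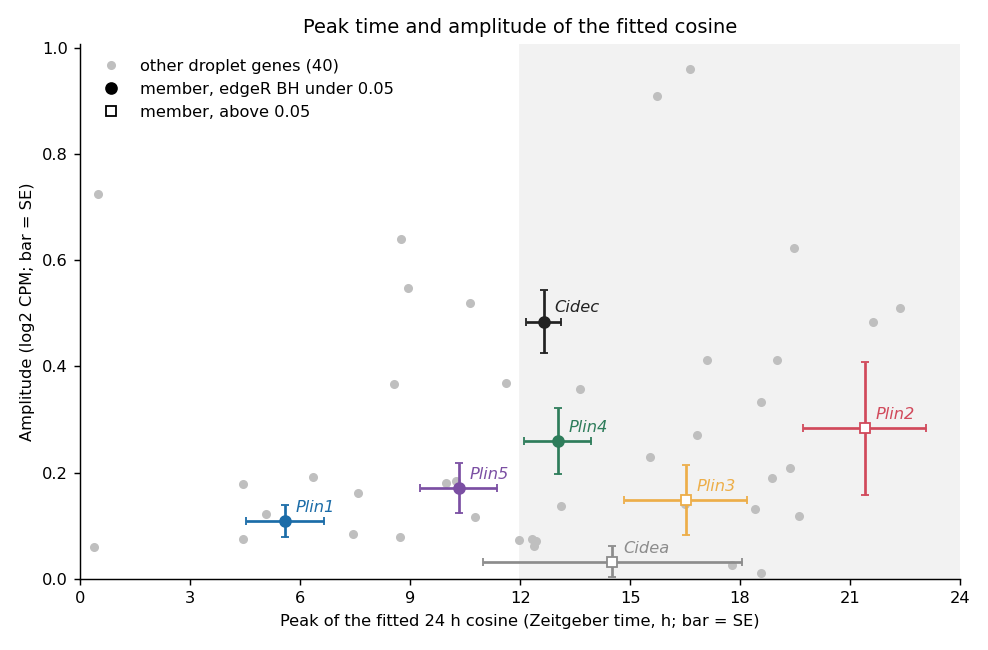
Amplitude of the fitted 24 h cosine (log2 CPM) against its peak (Zeitgeber time in hours), with SE bars for the 7 members, and 40 other droplet genes as grey points. Filled circles are members with an edgeR BH-adjusted p under 0.05. Plin4, Plin5 and Cidec lie between ZT10.3 and ZT13.0, Plin1 at ZT5.6, and Cidea has the widest bar along the time axis, followed by Plin3 and Plin2.

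The sequences before the start sites are shown for Cidec, Plin4 and Plin5, the members that were high together around lights off, and for Plin2, which was not. They are the 250 bases before the RefSeq start on the gene's strand (GRCm38.p6; 6 of the 7 members had an entry, with 8 start sites in all, of which the first of 2 is shown for Plin5 and Cidec; Cidea had none). Capitals mark CCAAT, the nuclear receptor half-site AGGTCA and the TATA motif TATAA, on either strand.
Cidec, chr6:113435761-113436010: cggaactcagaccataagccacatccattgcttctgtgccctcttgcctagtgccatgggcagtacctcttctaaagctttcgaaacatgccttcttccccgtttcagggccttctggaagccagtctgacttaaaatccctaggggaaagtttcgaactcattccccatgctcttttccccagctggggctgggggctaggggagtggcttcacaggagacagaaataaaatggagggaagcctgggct
Plin4, chr17:56109783-56110032: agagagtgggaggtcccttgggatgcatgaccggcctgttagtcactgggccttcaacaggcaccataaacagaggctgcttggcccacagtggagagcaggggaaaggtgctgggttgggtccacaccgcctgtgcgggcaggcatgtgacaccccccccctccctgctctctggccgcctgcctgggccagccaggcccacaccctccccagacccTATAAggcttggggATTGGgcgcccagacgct
Plin5, chr17:56117549-56117798: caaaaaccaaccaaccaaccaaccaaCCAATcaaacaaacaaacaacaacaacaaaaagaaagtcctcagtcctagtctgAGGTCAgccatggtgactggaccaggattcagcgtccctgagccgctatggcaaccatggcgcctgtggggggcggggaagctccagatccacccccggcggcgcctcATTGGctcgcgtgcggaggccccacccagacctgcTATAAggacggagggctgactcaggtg
Plin2, chr4:86670060-86670309: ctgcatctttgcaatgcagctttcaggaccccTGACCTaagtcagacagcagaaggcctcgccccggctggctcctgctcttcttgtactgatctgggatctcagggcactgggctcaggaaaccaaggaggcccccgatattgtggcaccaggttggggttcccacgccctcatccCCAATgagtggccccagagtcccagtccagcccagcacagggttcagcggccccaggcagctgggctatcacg

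TATAA was in the windows of Plin4 and Plin5, 32 and 27 bases before the start, and in 22.8% of the 32851 windows of the table. The half-site AGGTCA was in those of Plin5 and Plin2 and in 14.0% of all windows. CCAAT was in 4 of the 8 member windows (Plin2, Plin3, Plin4 and Plin5) and in 33.8% of all. The window of Cidec held none of these letters. The E-box CACGTG, which clock proteins bind, was in none of the 8 member windows and in 6.02% of all windows. With the 50 bases after the start added, Plin2 held 1 that begins 4 bases before its start, as did 7.15% of entries of 300 bases. AGGTCANAGGTCA, the direct repeat that PPAR proteins bind, matched no member window and 0.0335% of all. At that rarity 8 windows were unlikely to hold a match, so its absence says little about PPAR binding. Such matches describe letters only.

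Plin1 (ENSMUSG00000030546, chr7:79720218-79732903, minus strand) encodes the main droplet coat of fat cells, which holds back lipolysis until protein kinase A phosphorylates it. The mice of ZT15 had 862, 939, 922 and 932 CPM, and those of ZT9, the highest time point, 1223, 1242, 1054 and 1144. All mice of ZT15 lay below all of ZT9 and of ZT3 (989, 1077, 1177 and 1091), where ZT15 and ZT9 were picked as the extremes of the means. ZT18 exceeded ZT15 by more than the pooled SD, and the other neighbours in the order of the means did not. Its amplitude was the smallest of the called members, 0.11 ± 0.03 on the log2 scale, with a peak at ZT5.59 ± 1.06 and an adjusted p of 0.0223 (edgeR).

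Calls for Plin1 depended on single libraries and on the filter. The adjusted p of its cosine was 0.0518 without ZT18 replicate 1, and with no filter on low counts it was 0.0596 for the cosine and 0.0914 for any difference. The adjusted p of any difference between time points, 0.0292 with all libraries, ran from 0.0510 to 0.0698 without any 1 of the ZT15 libraries or without ZT9 replicate 2. JTK P of Plin1, 0.0271 with all libraries, ran from 0.0620 to 0.0719 without ZT6 replicate 2, ZT15 replicate 2, ZT15 replicate 4 or ZT18 replicate 1.

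Plin3 (ENSMUSG00000024197, chr17:56277476-56292873, minus strand) encodes a perilipin that is found in most tissues and moves from the cytosol to new droplets. At ZT15 its mice had 203, 174, 157 and 180 CPM, and at ZT6, the lowest time point, 118, 107, 109 and 96.7. The mice of ZT15 lay above those of ZT6 and of ZT12 (109, 113, 127 and 129), where ZT15 and ZT6 were picked as the extremes of the means. ZT15 exceeded ZT0 and ZT0 exceeded ZT18 by more than the pooled SD, and the lower neighbours were not separated. The adjusted p was 0.000753 for any difference between time points and 0.119 for the cosine (edgeR). Summed muscle markers were also highest at ZT15, and their part in the level of Plin3 was not tested. Beside lane as a further term, the cosine of Plin3 had an adjusted p of 0.00139.

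Plin2 (ENSMUSG00000028494, chr4:86648386-86670060, minus strand) encodes the widespread perilipin that rises with lipid load in many cell types. At ZT15 its 4 mice had 228, 622, 593 and 737 CPM, at ZT9 737, 531, 254 and 312, and at ZT0 705, 836, 979 and 454. Every pair of these time points overlapped. The highest mouse was 4.30-fold above the lowest over the 32 libraries, and the SD within time points was 31.0% of the mean, against 7.79% to 15.1% for the other members. Its cosine had an amplitude of 0.28 ± 0.12 and an adjusted p of 0.204, and a difference between time points had an adjusted p of 0.442 (edgeR).

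Cidea (ENSMUSG00000024526, chr18:67343604-67367785, plus strand) encodes the droplet fusion protein that is a common marker of brown fat. Its means ran from 1746 ± 179 CPM at ZT3 to 1893 ± 257 at ZT15 (SD, n = 4). The mice of ZT3 had 1971, 1618, 1586 and 1808 CPM and those of ZT15 1529, 1937, 2132 and 1973, so the groups overlapped fully. The amplitude was 0.03 ± 0.03 with an adjusted p of 0.666 (edgeR). The SD of the time-point means was 3.11% of the level, and that of single mice within time points 8.47%. A mean of 4 mice varies less than a single mouse, so these SD do not show that Cidea was flat.

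The next question was how large the change was between time points 12 h apart, in the edgeR fit of all libraries. At ZT12 against ZT0, 3 of 7 members were higher and 0 lower, against 7.71% and 8.15% of genes. They were Cidec (log2 fold change 0.79 ± 0.14 SE, adjusted p = 0.000229), Plin4 (0.61 ± 0.15, adjusted p = 0.00778) and Plin5 (0.37 ± 0.11, adjusted p = 0.0258). For Plin5 the adjusted p was 0.0795 without ZT0 replicate 4, and 0.0663, 0.0529 and 0.0535 without ZT12 replicates 1, 2 and 4. With no filter on low counts it was 0.0504. With library size alone as the scaling, 59.4% of the genes called in this contrast were higher at ZT12, and 48.6% with TMM; the same 3 members were called.

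At ZT15 against ZT3, 2 members were higher and 1 lower, against 6.89% and 7.28% of genes. Cidec was higher by 0.81 ± 0.14 (edgeR adjusted p = 0.000174) and Plin3 by 0.56 ± 0.13 (adjusted p = 0.00383), and Plin1 fell by 0.25 ± 0.08 (adjusted p = 0.0427). The call for Plin1 was lost without any 1 of the 4 ZT15 libraries, ZT3 replicates 2, 3 or 4, or ZT6 replicate 3, where the adjusted p ran from 0.0501 to 0.141. It was also lost in a fit of the 8 libraries of the contrast alone (adjusted p = 0.0711) and with no filter on low counts (0.131). Plin4 was 0.29 ± 0.15 higher with an edgeR adjusted p of 0.225.

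At ZT18 against ZT6, 0 of 7 members were called in either direction by edgeR or DESeq2, against 8.18% of genes higher and 8.68% lower. Plin5 (-0.30 ± 0.11) and Cidec (0.31 ± 0.14) had an unadjusted p under 0.05, 2 of 7, against 30.5% of genes. Without ZT18 replicate 3, ZT6 replicate 2, ZT9 replicate 2 or ZT15 replicate 1, Plin5 was called lower (adjusted p = 0.0391 to 0.0442), and without ZT18 replicate 1 or ZT6 replicate 4 Cidec was called higher (adjusted p = 0.0299 and 0.0457).

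At ZT21 against ZT9, 0 members were higher and 1 lower, against 4.51% and 5.11% of genes. Cidec fell by 0.77 ± 0.14 (edgeR adjusted p = 0.000552). The genes called in either direction numbered 1492 in this contrast and 953 without ZT21 replicate 4, and at ZT18 against ZT6 2615 and 1733 without ZT18 replicate 2. The 4 contrasts share no samples with each other.

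The muscle markers stood at 2343 ± 3233 CPM at ZT12 and 2127 ± 2422 at ZT0, and at 3444 ± 2950 at ZT15 and 1945 ± 3706 at ZT3 (SD, n = 4). They stood at 1842 ± 2412 CPM at ZT18 and 496 ± 874 at ZT6, and at 1483 ± 1573 at ZT21 and 942 ± 1009 at ZT9. Without the 15 libraries over 1000 CPM, replicate 4 was the only mouse left at ZT15. The folds called before kept their sign but no longer passed the threshold in the contrasts of ZT12, ZT15 and ZT21. Cidec then had 0.81, 0.88 and -0.71 in these 3 contrasts, and 0.11 at ZT18 against ZT6, where all libraries gave 0.31. Plin4 had 0.86 and Plin5 0.36 at ZT12 against ZT0, Plin3 0.58 and Plin1 -0.20 at ZT15 against ZT3. In this fit the values at ZT15 rest on 1 mouse. At ZT18 against ZT6, 1 member was called, Plin5 at -0.52 (adjusted p = 0.0358), against 1179 of 16063 genes in either direction.

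Markers of other cell types were set beside these contrasts (summed CPM, SD, n = 4). The 7 white adipocyte markers, 6 of them with counts in every library, stood at 209 ± 47.7 CPM at ZT12 and 167 ± 56.4 at ZT0, at 281 ± 97.5 at ZT15 and 124 ± 36.6 at ZT3, at 192 ± 44.3 at ZT18 and 66.5 ± 13.0 at ZT6, and at 109 ± 35.0 at ZT21 and 204 ± 100.3 at ZT9. The sum was also higher at ZT18 than at ZT6, where Cidec was higher by 0.31 ± 0.14 (log2, SE) without being called. Of the 6 tested genes of this list, edgeR called 0 at ZT12 against ZT0, 1 higher and 1 lower at ZT15 against ZT3, 1 higher and 1 lower at ZT18 against ZT6, and 0 higher and 1 lower at ZT21 against ZT9. Lep, the leptin gene, had 199 of the 281 CPM at ZT15 and was higher by 2.07 on the log2 scale against ZT3 (edgeR adjusted p = 0.00228) and by 2.50 at ZT18 against ZT6 (adjusted p = 0.000428). Trim66 was lower in both contrasts, by -1.19 (edgeR adjusted p = 0.0445) and -2.31 (adjusted p = 0.000167), and Nnat was the gene lower at ZT21 against ZT9 (-2.90, adjusted p = 0.00928).

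The 6 endothelial markers summed to 635 ± 27.2 CPM at ZT12 and 858 ± 100.7 at ZT0, to 755 ± 57.3 at ZT15 and 895 ± 39.1 at ZT3, to 798 ± 49.7 at ZT18 and 829 ± 77.6 at ZT6, and to 709 ± 5.57 at ZT21 and 713 ± 60.2 at ZT9. Of this list 1 gene was higher at ZT12 against ZT0 (Vwf, by 0.41, edgeR adjusted p = 0.0361) and 2 were lower (Kdr, by -0.79, adjusted p = 4.44e-07, and Cldn5, by -1.58, adjusted p = 0.000687), 1 was lower at ZT15 against ZT3 (Cldn5, by -1.63, adjusted p = 0.000451), and 0 were called in the other contrasts. Stromal markers (5 genes) summed to 653 ± 92.2 CPM at ZT12 and 428 ± 64.2 at ZT0, to 531 ± 196 at ZT15 and 754 ± 132 at ZT3, to 523 ± 83.4 at ZT18 and 659 ± 231 at ZT6, and to 459 ± 107 at ZT21 and 710 ± 206 at ZT9. Of these 5 genes edgeR called 1, Col3a1, lower at ZT21 against ZT9 (-0.77, adjusted p = 0.0451) and 0 in the other contrasts. Macrophage markers (8 genes) summed to 100.6 ± 13.3 CPM at ZT12 and 65.7 ± 13.7 at ZT0, to 80.3 ± 29.9 at ZT15 and 116 ± 25.3 at ZT3, to 84.1 ± 16.1 at ZT18 and 98.6 ± 23.7 at ZT6, and to 75.3 ± 21.3 at ZT21 and 133 ± 98.1 at ZT9. Of these 8 genes edgeR called Cd163 higher at ZT12 against ZT0 (1.07, adjusted p = 0.0124), Adgre1 lower at ZT21 against ZT9 (-2.30, adjusted p = 0.0181) and 0 in the other contrasts. Over all tested genes, 7.71% were higher and 8.15% lower at ZT12, 6.89% and 7.28% at ZT15, 8.18% and 8.68% at ZT18, and 4.51% and 5.11% at ZT21. The part of these cell types in the changes of Cidec, Plin4 and Plin5 was not tested.

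**Figure D4:**
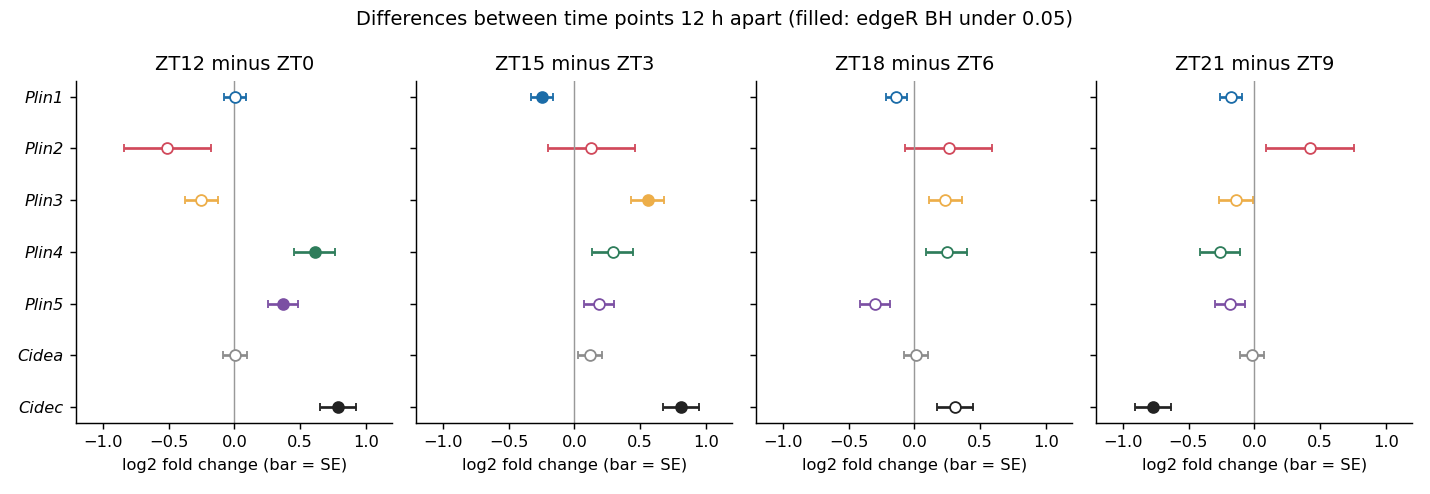
Log2 fold change (horizontal axis, SE bars) of each member between time points 12 h apart, 1 panel per contrast, filled where the edgeR BH-adjusted p was under 0.05. Cidec is filled in 3 panels, at 0.79, 0.81 and -0.77, and Plin2 has the widest bars.

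Because each lane held 2 or 3 time points, differences were also tested inside lanes with edgeR. Inside lane 2 (ZT0, ZT3, ZT6), lane 3 (ZT9, ZT12, ZT15) and lane 4 (ZT18, ZT21), 0 of 7 members were called, against 12.7%, 1.75% and 4.06% of genes. These backgrounds also turned on single libraries: the 1963 genes of lane 2 became 871 without ZT0 replicate 3 and 3292 without ZT0 replicate 4, the 272 of lane 3 became 53 without ZT15 replicate 3, and the 630 of lane 4 became 139 without ZT21 replicate 1. Such shifts of over 1.5 times also came from leaving out ZT0 replicates 1 or 2, ZT3 replicate 3 or ZT6 replicate 3 in lane 2, ZT9 replicates 2 or 4, any 1 of ZT12 replicates 1 to 3 or ZT15 replicates 2 or 4 in lane 3, and any library of lane 4. At an unadjusted p under 0.05 there were 2 members in lane 2 (Plin3 and Plin4), 2 in lane 3 (Plin1 and Plin3) and 3 in lane 4 (Plin3, Plin5 and Cidec), against 31.5%, 15.6% and 19.9% of all tested genes. Some single libraries changed this: without ZT0 replicate 4 Plin3 and Plin4 were called in lane 2 (adjusted p = 0.0252 and 0.0249), without ZT3 replicate 1 Plin3 (0.0309) and without ZT3 replicate 2 Plin4 (0.0390). Without ZT18 replicate 1 Cidec was called in lane 4 (adjusted p = 0.0343). Without ZT9 replicate 3, the library with the highest summed macrophage markers (278 CPM, of a range from 49.6), Plin3 was called in lane 3 (adjusted p = 0.0295).

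With lane as an additive term, the cosine was called for 2 of 7 members, Plin1 and Plin3, against 17.2% of genes (edgeR). The adjusted p of Plin1 was 0.0466 with all libraries and ran from 0.0514 to 0.108 when any 1 of 18 libraries was left out (ZT0 replicates 1 and 2, ZT3 replicate 3, ZT6 replicates 1, 2 and 3, ZT9 replicates 1, 2 and 4, all 4 of ZT15, ZT18 replicates 1 and 2, ZT21 replicates 1, 2 and 4). Plin3 stayed called without each single library. With RLE size factors the adjusted p of Plin1 was 0.0516, and with no filter on low counts 0.113. The cosines of Plin4, Plin5 and Cidec, called without the lane term, had adjusted p of 0.283, 0.470 and 0.0970 beside lane.

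The other genes that form, break down or coat droplets were described from fixed lists. Of 15 genes of droplet formation and growth, 8 had a cosine (edgeR), against 36.1% of all tested genes, and the median amplitude over all 15 was 0.33, beside 0.14 over all tested genes. At ZT12 against ZT0, 4 of the 15 were higher and 0 lower, against 7.71% and 8.15% of all tested genes. At ZT15 against ZT3, 2 were higher and 0 lower, against 6.89% and 7.28%. At ZT18 against ZT6, 2 were higher and 3 lower, against 8.18% and 8.68%, and at ZT21 against ZT9, 0 were higher and 7 lower, against 4.51% and 5.11%. Dgat2, which makes triglyceride from diacylglycerol, ran from 1571 ± 121 CPM at ZT21 to 2952 ± 221 at ZT15 with its cosine peak at ZT11.6 (adjusted p = 2.75e-05). Gpat4 and Acsl1, which start glycerolipid synthesis and activate fatty acids, peaked earlier than Cidec, at ZT8.7 and ZT8.6. Lpin1, a phosphatidate phosphatase, peaked at ZT17.1, and Cideb, the liver member of the CIDE family, had 5.28 CPM with its highest mean at ZT9 (7.66 ± 2.28).

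Of 11 genes of lipolysis and its control, 7 had a cosine, against the same 36.1%, and the median amplitude over all 11 was 0.19. Pnpla2, the triglyceride lipase that perilipins hold in check, peaked at ZT13.1 with a small amplitude of 0.14 (adjusted p = 0.000102, edgeR), next to Plin4 and Cidec. Its inhibitor G0s2 had the largest amplitude of this list, 0.96, from 104 ± 8.10 CPM at ZT6 to 588 ± 139 at ZT15. Abhd5, the co-activator that Plin1 binds, had its lowest mean at ZT15 (67.5 ± 5.17 CPM), and its difference between time points had an adjusted p of 0.0523. Prkaca, the catalytic subunit of protein kinase A, peaked at ZT6.3, close to Plin1, and Adrb3, the receptor through which noradrenaline starts lipolysis in fat cells, at ZT0.5.

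Of 14 tested genes of other droplet surface proteins (16 listed), 9 had a cosine, against 36.1% of all tested genes, and 2 of these 9 peaked between ZT9 and ZT18, as did 1872 of the 5602 cosines of all tested genes. The median amplitude over all 14 was 0.13. Of 9 regulators 4 had a cosine, against 36.1%, and the median amplitude over all 9 was 0.20: Pparg, the nuclear receptor that drives fat cell differentiation, had an adjusted p of 0.595, while Ppara peaked at ZT8.6 (adjusted p = 0.0105) and Srebf1 at ZT15.3 (adjusted p = 0.00440). Of 10 PPAR target genes outside the droplet 6 had a cosine, against 36.1%, and the median amplitude over all 10 was 0.38. Among them Lpl, the lipase that frees fatty acids from the triglyceride of lipoproteins, had an amplitude of 0.38 and its peak at ZT12.0, and Angptl4 and Pdk4 peaked at ZT2.2 and ZT2.8. Of these 6 cosines, 2 peaked between ZT9 and ZT18. The share of cosines in these lists was not tested against that of all genes.

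The genes most like each member were ranked by Pearson's r of log2 CPM over the 32 libraries, among 8520 tested genes with a mean of at least 10 CPM; these r are descriptions and share library and time of day. Cidec was most like Lpl (r = 0.94), Agpat1, an enzyme of phospholipid and triglyceride synthesis (0.93), and Ube3b (0.91). Plin2 was most like Pgd, which makes NADPH in the pentose phosphate pathway (0.94), Acot11, an acyl-CoA thioesterase (0.93), and Nsdhl, an enzyme of cholesterol synthesis (0.92). For Plin2 the r of deviations within time points was as high, 0.95 for Pgd, 0.94 for Acot11 and 0.95 for Nsdhl, whereas for Cidec it was 0.77 for Lpl, 0.76 for Agpat1 and 0.82 for Ube3b.

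The r were lower for the other members. Plin1 was most like Atg2a (0.75), Prkaca (0.73) and Psmd4 (0.73), and Plin3 like Ticam1 (0.79), Dnajb4 (0.77) and Mavs (0.76). Plin4 was most like Sh2b3 (0.80), Slc39a3 (0.80) and Tob2 (0.79), and Plin5 like Rsad1 (0.83), Ptdss2 (0.83) and Brap (0.82). Cidea was most like Naxe (0.84), Ndufv3, a subunit of respiratory complex I (0.77), and Mcrip2 (0.77), and the r within time points were 0.82, 0.85 and 0.84.

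A last question was which members varied together among mice of the same time point. Deviations from the time-point means were correlated over the 32 libraries for the 21 pairs of members, with a two-sided permutation test inside time points (100000 resamples) and BH adjustment over the 21 pairs. Of these pairs 12 had a positive and 9 a negative r, and 2 passed the adjusted threshold, both with Plin5 and both positive. Without the 3 libraries that stood apart, 0 of the 21 pairs passed it.

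Plin5 and Cidec had r = 0.63 (permutation p = 0.000320, adjusted 0.00672) and Spearman's rho = 0.67 (permutation p = 0.000290, adjusted 0.00609). Without the 2 libraries farthest from the median of Plin5, r was 0.62 (permutation p = 0.00760). Without the 3 libraries that stood apart r was 0.52 (permutation p = 0.00790, adjusted 0.0829, n = 29) and rho 0.54 (permutation p = 0.00674, adjusted 0.0984); ZT15 replicate 1 lay below the mean of its time point in Plin5, Cidea and Cidec by log2 deviations of -0.32, -0.30 and -0.28. Within lanes r was 0.60 in lane 2 (exact permutation p = 0.0946, n = 12), 0.80 in lane 3 (exact permutation p = 0.00210, n = 12) and 0.62 in lane 4 (exact permutation p = 0.193, n = 8). The sign was positive in each lane, with an exact p under 0.05 in lane 3.

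Plin5 and Cidea had r = 0.59 (permutation p = 0.00278, adjusted 0.0292) and rho = 0.52 (permutation p = 0.00367, adjusted 0.0385). Without the 2 farthest libraries r fell to 0.37 (permutation p = 0.0724), and without the 3 libraries that stood apart it was 0.36 (permutation p = 0.0613, adjusted 0.322, n = 29; rho = 0.35, permutation p = 0.0785, adjusted 0.412). Within lanes r was 0.58 in lane 2 (exact permutation p = 0.0724, n = 12), 0.79 in lane 3 (exact permutation p = 0.0182, n = 12) and 0.00 in lane 4 (exact permutation p = 1, n = 8). Without the 3 libraries that stood apart the pair no longer passed the adjusted threshold, nor did Plin5 and Cidec. No positive r was seen in lane 4, which held 8 mice.

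Plin1 and Plin3 had the strongest negative relation, r = -0.49 (permutation p = 0.00768, adjusted 0.0538) and rho = -0.48 (permutation p = 0.0130, adjusted 0.0908), with r = -0.61 without the 2 farthest libraries (permutation p = 0.00177). Without the 3 libraries that stood apart r was -0.54 (permutation p = 0.00373, adjusted 0.0783, n = 29). It was negative in each lane, -0.14 in lane 2 (exact permutation p = 0.670, n = 12), -0.76 in lane 3 (exact permutation p = 0.00210, n = 12) and -0.55 in lane 4 (exact permutation p = 0.160, n = 8). Plin4 and Plin5, neighbours in the genome, had r = -0.05 (permutation p = 0.818, adjusted 0.895) and rho = -0.10 (permutation p = 0.643, adjusted 0.675). Their r within lanes was -0.38, -0.01 and 0.22, and -0.08 without the 2 farthest libraries.

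**Figure D5:**
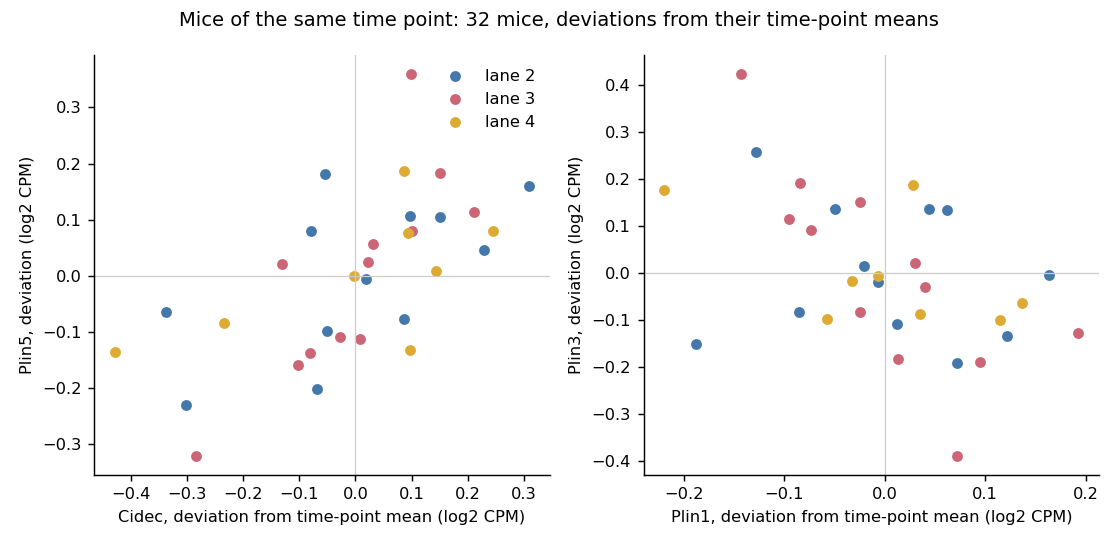
Deviation of each mouse from the mean of its time point (log2 CPM) for Plin5 against Cidec on the left and Plin3 against Plin1 on the right, coloured by lane, 32 mice. Points rise from left to right for Plin5 and Cidec (r = 0.63) and fall for Plin1 and Plin3 (r = -0.49).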

How the data were processed

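RNA of iBAT was sequenced on a BGI platform as stranded 100 bp paired-end libraries. The deposited values are raw counts per gene: per the labels and the study's own methods, reads were mapped by the authors to mm10 with GSNAP and counted them with HTSeq-count (0.6.1) on an Ensembl annotation, without normalization. Whether counting used strand is not given in the sources used here. Gene positions and exon lengths are from GENCODE for GRCm38, not the authors' annotation; 17 exonic bases of Plin4 (0.294%) overlap Hdgfl2 on the other strand, and the other members overlap no exon of another gene. Mouse number is the replicate, and within time points, all 48 library pairs differed by more than counting noise (mean chi-square per gene 7.37 to 103.7).

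Counts were filtered with filterByExpr (15505 genes, 99.93% of counts), scaled by TMM and tested with edgeR's quasi-likelihood F test (4.0.16, R 4.3.3), with Benjamini-Hochberg adjustment over all tested genes and a threshold of 0.05. Amplitude and peak time come from a least squares cosine on log2 CPM (prior count 2). JTK is an own implementation with 15 templates of 21 and 24 h. Scripts were tested on simulated data. Python was 3.11.15 with numpy 2.4.6, pandas 2.3.3 and scipy 1.17.1; DESeq2 was 1.42.0. Alternatives were RLE size factors, library size, no filter, DESeq2, the replicate number as a block, the 8 libraries of a contrast alone, removal of mitochondrial genes, and leaving out each library. The members, gene lists and tests were chosen with earlier results of these data known. Named genes are the members, the lists, and the 3 genes most like each member. No molecular identifiers are named in the sources used here, so counting error is a lower limit of the technical error.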

Additional observations from a re-analysis of the deposited data

Results flagged for a closer look

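Among 4 mice, 1 mouse stood far from the other 3 in 2 of the 56 groups of member and time point (gap to the nearest over the range of the group above Dixon's 95% critical value); chance flags about 1 in 20 groups. Plin5 at ZT9 was 206.76 CPM in replicate 2 and 146 to 149 CPM in the other mice. Cidea at ZT0 was 2057.59 CPM in replicate 2 and 1806 to 1825 CPM in the other mice. Without ZT9 replicate 2 the adjusted p of Plin5 at ZT18 against ZT6 was 0.0396 (edgeR), and 0.0690 with it.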

How the results depend on the processing

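Of the 362 counts of members recomputed under other settings, 320 stayed within 1.5 times of the reported count. Of these, 262 came from fits with 1 library left out. A fall from 5 to 4, 4 to 3 or 3 to 2 members stays within this ratio, so losing 1 member could go unmarked. Without the filter the call of Plin1 was lost for the cosine (adjusted p = 0.0596, 3 members), any difference (0.0914) and ZT15 (0.131), and that of Plin5 at ZT12 (0.0504). The cosine was called for 4 members with RLE size factors, library size, DESeq2, the replicate block or mitochondrial genes removed. With the replicate block, 5 members differed between time points and 3, 2, 0 and 1 were called in the contrasts from ZT12 to ZT21; it ended the call of Plin1 at ZT15 against ZT3 (adjusted p = 0.0576, and 0.0711 with the 8 libraries alone) and changed no other call; deviations of same-numbered mice had r over 0.1 in 49 of 112 pairs (median -0.119), so numbers were not taken as pairs. JTK with BH called 2 members in place of 4. The cosine beside lane was called for 1 member with RLE size factors or no filter, in place of 2. With library size alone 1 member was called in lane 2 (Plin4) and 1 in lane 3 (Plin1), in place of 0. Without the muscle-rich libraries, chosen after seeing the data, counts were 1 for the cosine, 1 for JTK, 2 for any difference, 0 beside lane, 1 in lane 2 and 0, 0, 1 and 0 in the contrasts; fewer libraries were then in the fit. Cidea then had -0.017 at ZT18 against ZT6 and 0.098 at ZT21 against ZT9, both opposite to the reported sign. Without the 3 libraries that stood apart, also chosen after seeing the data, 1 member was called in lane 3 and 1 at ZT18 against ZT6, in place of 0, and Plin3 had 0.020 at ZT21 against ZT9, opposite to the reported sign.

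Leaving out 1 library at a time, the counts ran from 3 to 4 for the cosine, 3 to 5 for JTK, 4 to 5 for any difference, 1 to 2 beside lane, 0 to 2 in lane 2, 0 to 1 in lanes 3 and 4, 2 to 3 at ZT12 and at ZT15, 0 to 1 at ZT18 and 1 to 1 at ZT21. Signs turned only for uncalled contrasts: Cidea ran from -0.015 to 0.051 at ZT12, -0.023 to 0.056 at ZT18 and -0.087 to 0.025 at ZT21, Plin1 from -0.065 to 0.032 at ZT12, Plin2 from -0.052 to 0.38 at ZT15 and Plin3 from -0.26 to 0.020 at ZT21. Over all genes, the 8 libraries alone called 1259 in place of 2459 at ZT12 and 701 in place of 1492 at ZT21, where no filter gave 966. Without the muscle-rich libraries the calls were 2863 in place of 5602 for the cosine, 1548 against 6173 for any difference, 779 against 2661 beside lane, 1122 against 1963, 0 against 272 and 14 against 630 in the lanes, 366 against 2459, 248 against 2198, 1179 against 2615 and 179 against 1492 in the contrasts, and 3048 against 5397 for JTK. Depth limits no member, since the lowest level was 91.1 CPM.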
